A study of Tursiops truncatus with 17 samples.

Results

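The genes described here encode the subunits of the proteasome, read in the cerebral cortex of bottlenose dolphins. They were chosen by symbol as the protein-coding genes named PSMA, PSMB, PSMC or PSMD with a number, which gave 39 of the 21265 genes in the deposited files. The 39 comprise 15 genes of the 20S core, 4 genes for alternative catalytic subunits (PSMB8, PSMB9, PSMB10 and PSMB11), 17 genes of the 19S cap and 3 genes for assembly chaperones that carry PSMD symbols. SEM1, a small subunit of the cap, was not matched by symbol, and ADRM1, the ubiquitin receptor of the cap, lies outside the naming rule and is treated with the neighbouring pathways.

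The proteasome is the main protease that degrades ubiquitin-tagged proteins in the cytosol and nucleus. Its barrel, the 20S core, is built of outer rings of alpha subunits, which form the gate, and inner rings of beta subunits, of which PSMB5, PSMB6 and PSMB7 carry the active sites. The 19S cap binds ubiquitin chains, removes them, unfolds the substrate with a ring of ATPases and feeds it into the core. Inflammatory signals such as interferon replace the active subunits with PSMB8, PSMB9 and PSMB10, giving the immunoproteasome, which is low in healthy brain and cuts peptides for presentation on MHC class I.

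RNA sequencing was done on archived frozen necropsy cortex from 17 estuarine dolphins (Tursiops truncatus, genotype given as WT), 8 sampled in the non-bloom season and 9 in the bloom season, with 1 library per animal. The labels give no age, sex, date of death, sequencing batch or agent, so any batch cannot be told apart from season. Libraries are called here by season and by a number given in order of accession.

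The libraries held 7680050 to 15635292 reads. Mitochondrial genes drew 9.68% to 22.1% of reads in non-bloom and 1.47% to 77.2% in bloom dolphins. Bloom 9 (77.2%), bloom 5 (57.0%) and bloom 6 (33.5%) stood apart from the other 14, and bloom 9 was left with 1753299 reads outside the mitochondrial genome, so each season comparison was also fitted without these 3 libraries. Of 12 pan-neuronal marker genes 11 were found in the files, and their summed value was 8463 to 13961 in the non-bloom and 2639 to 10544 in the bloom libraries, lowest in bloom 5 and bloom 6. In whole tissue, fewer cells of a type and less RNA per cell cannot be told apart. No pair of libraries agreed within sampling noise: the closest of 136 pairs differed with a chi-square of 17.0 per gene.

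Proteasome subunit genes together drew 14782 to 79481 reads per library. Their share of the reads outside the mitochondrial genome was 0.578% ± 0.0547 (SD, n = 8) in the non-bloom and 0.571% ± 0.112 (n = 9) in the bloom libraries. Bloom 9, at 0.843%, lay above every other library, and without bloom 5, 6 and 9 the bloom share was 0.555% ± 0.0438 (n = 6). Values below are the deposited normalised values, which are counts per library size (CPM) scaled between libraries by the trimmed mean of M values. They are not divided by transcript length, so levels are compared between dolphins and not between genes. Log2 changes are bloom minus non-bloom on log2(value + 1), from limma with Benjamini-Hochberg adjustment over the 13548 genes tested.

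Of the 39 genes, 37 were tested. PSMA8, the testis form of an alpha subunit, had 0 to 6 reads per library and 22 in all. PSMB11, the thymus-specific catalytic subunit, had 2 reads, both in bloom 4. Both stayed below the minimum count for testing, so a difference between seasons was not detectable at this depth. In these libraries 3 reads correspond to a value of 0.158 to 1.71, the limit that a count of 0 allows.

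No proteasome subunit gene differed between seasons at an adjusted p under 0.05 by limma, where 9.16% of all genes tested did, and edgeR's quasi-likelihood test also called 0 of the 37 against 8.29% of all genes. At an unadjusted p under 0.05, limma gave 1 gene higher in bloom (PSMB10) and 8 lower (PSMC2, PSMD3, PSMD13, PSMD6, PSMD2, PSMC6, PSMD12 and PSMA1). Over all genes tested the same rule gave 16.4% higher and 19.1% lower. By edgeR the unadjusted counts were 1 higher and 7 lower, against 20.9% and 14.8% of all genes. DESeq2 called 7 members, PSMB10 higher and PSMC2, PSMD3, PSMD6, PSMD13, PSMC6 and PSMD2 lower, where it called 14.4% of all genes higher and 9.04% lower. The median log2 change of the 37 genes was −0.08, against −0.0034 over all genes tested, with 17 changes above and 20 below 0.

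Without bloom 5, 6 and 9, limma again called 0 of the 37 genes, where 2.34% of all genes passed. At an unadjusted p under 0.05 there were then 6 lower and 0 higher, against 10.9% and 11.6% of all genes. The median log2 change was −0.09, and 29 of the 37 changes lay below 0. Over all genes tested the median was 0.01, with 6550 changes below 0 and 6989 above. In none of the 37 genes did the bloom libraries all lie above or all lie below the non-bloom libraries, with or without those 3 libraries. Of all genes tested, 0.657% were separated in that way over the 17 libraries and 1.12% over the other 14. At shares this small, 0 of 37 genes does not set the members apart from all genes.

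**Figure D1:**
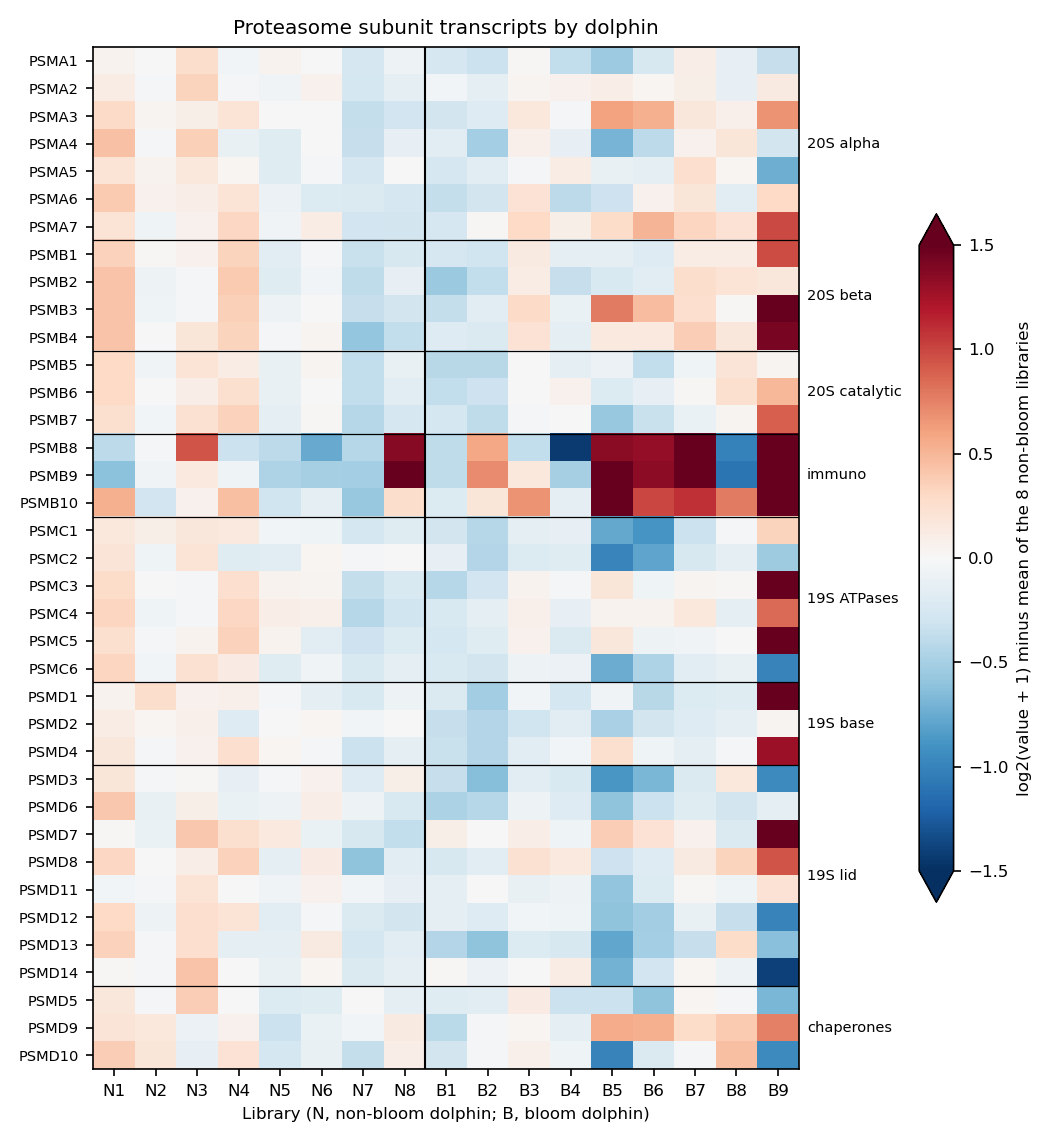
Deviation of each of the 37 tested proteasome subunit genes (rows, grouped by place in the complex) from its mean over the 8 non-bloom libraries, on log2(value + 1), in each library (columns; N, non-bloom; B, bloom). Colours are capped at 1.5 in both directions. Bloom 9 has 17 genes above 0.5 and 9 below −0.5, and PSMB8 and PSMB9 swing between strong blue and strong red from dolphin to dolphin.

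In the 20S core, season differences were small against their errors. The 14 tested genes of the core, leaving out the immunoproteasome, had a median log2 change of −0.05, and only PSMA1 reached an unadjusted p under 0.05. Alpha subunits, which shape the outer ring and its gate, had changes from −0.23 to 0.27.

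PSMA1 values were 36.0 to 51.9 in the non-bloom libraries (median 43.1) and 29.3 to 46.3 in the bloom libraries (median 36.0). In 5 of the 9 bloom libraries PSMA1 lay below all non-bloom libraries, while the remaining bloom libraries overlapped them. At least 5 bloom libraries lay below all non-bloom libraries in 16.1% of all genes tested. The limma fit gave PSMA1 the following changes. Its log2 change was −0.23 (SE 0.11, limma adjusted p = 0.140), and −0.16 (adjusted p = 0.387) without bloom 5, 6 and 9.

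PSMA7 was the alpha subunit with the change farthest above 0. Its values were 111 to 168 (median 136) in the non-bloom and 114 to 271 (median 165) in the bloom libraries, where 8 of 9 exceeded the non-bloom median. The log2 change was 0.27 (SE 0.15, limma adjusted p = 0.186), and 0.11 (adjusted p = 0.596) without the 3 libraries. The groups overlapped, with 3 of 9 bloom libraries above every non-bloom library. The other alpha genes had adjusted p of 0.303 or more: PSMA2, for one, had 59.1 ± 7.59 (SD, n = 8) in the non-bloom and 59.6 ± 3.96 (n = 9) in the bloom libraries.

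The structural beta subunits PSMB1, PSMB2, PSMB3 and PSMB4 had log2 changes from −0.10 to 0.34, none with an unadjusted p under 0.05. PSMB3 had the change farthest above 0, with 82.3 ± 16.2 (n = 8) in the non-bloom and 116 ± 75.4 (n = 9) in the bloom libraries (log2 change 0.34, SE 0.24, limma adjusted p = 0.309). Bloom 9 stood at 307 and the other bloom libraries between 62.8 and 140, of which bloom 5 (140) and bloom 6 (112) also exceeded the non-bloom maximum of 109. The change was 0.15 without bloom 9 and −0.01 without bloom 5, 6 and 9.

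Transcripts of the constitutive catalytic subunits were close between seasons. PSMB5, the chymotrypsin-like subunit, ranged from 105 to 167 (median 135) in the non-bloom and from 101 to 155 (median 127) in the bloom libraries. The log2 change of PSMB5 was −0.14 (SE 0.12, limma adjusted p = 0.392). Nearly the whole range was shared by both seasons.

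PSMB6, the caspase-like subunit, had 102 to 162 (median 132) in the non-bloom and 102 to 186 (median 131) in the bloom libraries, and a log2 change of −0.02 (SE 0.13, limma adjusted p = 0.915). PSMB7, the trypsin-like subunit, had 135 to 230 (median 180) and 122 to 338 (median 170), with a change of −0.08 (SE 0.17, limma adjusted p = 0.749). Bloom 9 gave the highest value of PSMB6 and of PSMB7, and the seasons overlapped for both.

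The immunoproteasome subunits varied most among dolphins within each season. The SD of the log2 level was 0.75 for PSMB8, 0.88 for PSMB9 and 0.39 for PSMB10 over the non-bloom libraries, and at most 0.34 (PSMB4) for the other members. PSMB8 had 1.46 to 9.70 (median 2.24) in the non-bloom and 0.537 to 12.0 (median 5.22) in the bloom libraries. PSMB9 had 1.03 to 12.1 (median 1.63) and 0.461 to 26.9 (median 4.09). These low values rested on 8 to 181 reads per library for PSMB8 and 7 to 226 for PSMB9.

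Among the non-bloom dolphins, non-bloom 8 was highest for both, at 9.70 for PSMB8 and 12.1 for PSMB9, and non-bloom 3 had 6.94 for PSMB8 but 2.46 for PSMB9. Among the bloom dolphins, bloom 5, 6, 7 and 9 had 9.33 to 12.0 for PSMB8 and 6.91 to 26.9 for PSMB9, and bloom 2 had 5.22 and 4.09. Bloom 4 (0.537 for PSMB8) and bloom 8 (0.461 for PSMB9) lay below every non-bloom dolphin for that gene. High and low dolphins thus occurred in both seasons.

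The log2 change was 0.37 (SE 0.45, limma adjusted p = 0.564) for PSMB8 and 0.76 (SE 0.51, adjusted p = 0.283) for PSMB9. Without bloom 5, 6 and 9 these values were −0.17 (adjusted p = 0.849) and 0.14 (adjusted p = 0.883). The SE of either gene was several times that of PSMB5 or PSMB6, so only a large difference could have passed.

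PSMB10, the trypsin-like subunit of the immunoproteasome, had the largest change of all members. Its values were 24.5 to 53.6 (median 35.8) in the non-bloom and 31.6 to 331 (median 63.7) in the bloom libraries. In 6 of 9 bloom dolphins PSMB10 exceeded every non-bloom dolphin, a pattern that at least as many bloom libraries showed in 8.22% of all genes tested. Bloom 1, bloom 2 and bloom 4, at 31.6, 41.8 and 33.4, lay within the non-bloom range.

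The log2 change of PSMB10 was 0.89 (SE 0.35, limma adjusted p = 0.0872). By edgeR it was 1.24 with an adjusted p of 0.0545, and by DESeq2 the adjusted p was 0.0143. Bloom 9, at 331, and bloom 5, at 107, were the highest. Without bloom 9 the change was 0.61 (limma adjusted p = 0.0883), and without bloom 5, 6 and 9 it was 0.40 (SE 0.22, adjusted p = 0.297).

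**Figure D2:**
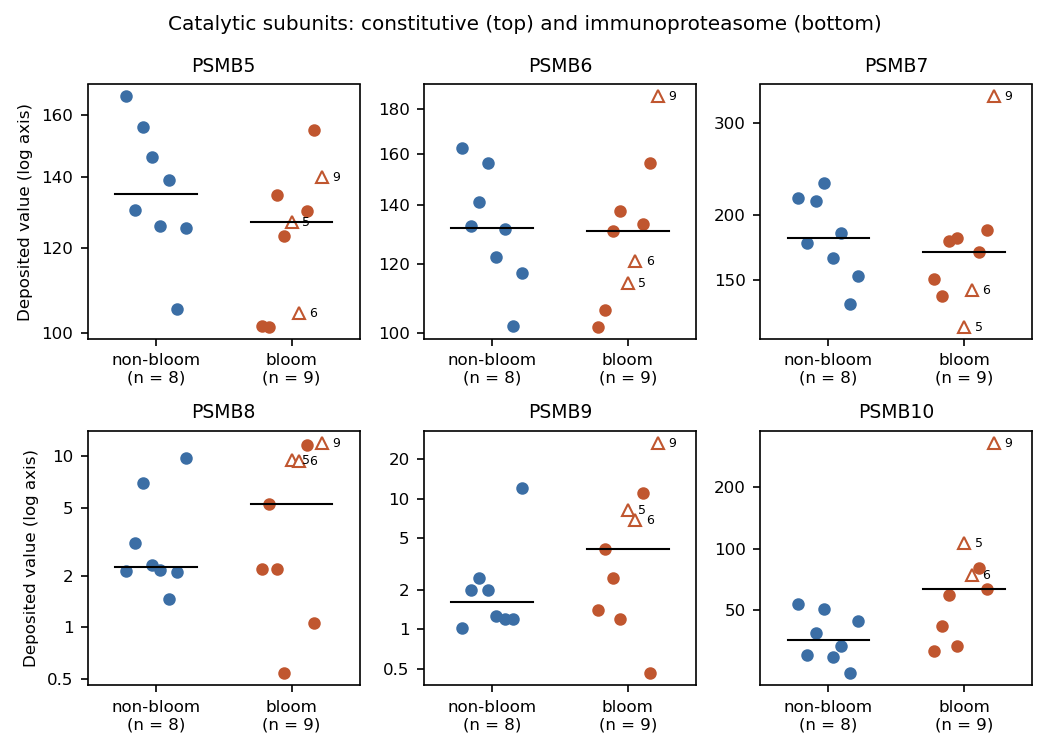
Deposited values of the constitutive catalytic subunits (upper row) and of the immunoproteasome subunits (lower row) in each library, on log axes. Points are dolphins in order of their number, lines are medians, and open triangles mark bloom 5, 6 and 9. PSMB5, PSMB6 and PSMB7 overlap between seasons, while PSMB10 lies above the non-bloom range in 6 of 9 bloom libraries.

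Each immunoproteasome subunit takes the place of 1 constitutive partner, so the ratio of their values was followed by dolphin. PSMB10 stood at 17.0% to 29.0% (median 18.1%) of PSMB7 in the non-bloom and 18.5% to 97.8% (median 34.2%) in the bloom libraries. PSMB8 stood at 1.05% to 7.73% (median 1.85%) of PSMB5 in the non-bloom and 0.436% to 8.93% (median 5.15%) in the bloom libraries. The PSMB9 to PSMB6 ratio was 0.636% to 10.3% (median 1.22%) and 0.294% to 14.4% (median 3.85%). All 3 ratios overlapped between seasons. Since transcript length is not divided out, only differences of a ratio between dolphins can be read, not its absolute size. The mean log2 ratio was higher in bloom by 0.99 for PSMB10, 0.49 for PSMB8 and 0.94 for PSMB9, and without bloom 5, 6 and 9 by 0.53, −0.22 and 0.16. No test was made of the ratios.

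PSMB8 and PSMB9 lie on 1 scaffold in the deposited coordinates, for which the labels name no build. PSMB8 spans bases 49749 to 54032 and PSMB9 bases 63852 to 70391 of GeneScaffold_3463, with TAP1, a subunit of the peptide transporter of antigen presentation, between them at 55650 to 63439. TAP1 had 2.86 to 61.1 (median 6.44) in the non-bloom and 2.76 to 55.6 (median 12.5) in the bloom libraries, a log2 change of 0.45 (SE 0.55, limma adjusted p = 0.568). PSMB10 lies on another scaffold.

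Markers of cells that could carry immunoproteasome transcripts were read beside them. Of 10 microglia and macrophage markers 7 were found, and their sum was 4.33 to 259 in the non-bloom and 4.70 to 31.3 in the bloom libraries. The highest sums were in non-bloom 3 (259), non-bloom 7 (174) and non-bloom 8 (87.3). Non-bloom 8 and non-bloom 3 also had the highest PSMB8 (9.70 and 6.94) and PSMB9 (12.1 and 2.46) of the non-bloom dolphins, while non-bloom 7 had 2.09 and 1.20. In bloom 9, where the 3 immunoproteasome genes were highest, the sum was 10.3. There AIF1, P2RY12, CD68 and CX3CR1 were at 0, where 0 reads allow a value of up to 1.71, CSF1R was at 0.571 and C1QB at 2.29, and TYROBP was at its bloom maximum of 7.43.

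All 10 T cell and neutrophil markers were found, with sums of 14.7 to 220 in the non-bloom and 1.59 to 20.3 in the bloom libraries. CD3D, CD3E, CD8A and CD2 were at or near 0 in all libraries, and of the 4 markers tested CD3G, S100A9 and S100A12 fell in bloom (limma log2 changes −1.18, −2.25 and −2.87, adjusted p = 0.0439, 0.0387 and 0.0178). CD3G had 4.55 to 8.03 in the non-bloom libraries. Endothelial markers, 9 of 10 found, summed to 250 to 797 in the non-bloom and 171 to 2456 in the bloom libraries. They were above the non-bloom range in bloom 5 (2108), bloom 6 (2456), bloom 3 (1178) and bloom 7 (1153) and lowest in bloom 9 (171). Bloom 3 had 2.20 for PSMB8 and 2.49 for PSMB9, where the non-bloom medians were 2.24 and 1.63. Its PSMB10 lay above every non-bloom dolphin.

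Glial markers were also high in bloom 5, 6 and 9, though not in bloom 7 or non-bloom 8. Astrocyte markers, 9 of 10 found, summed to 323 to 1838 in the non-bloom libraries and to 6708, 5226 and 6862 in bloom 5, 6 and 9. Bloom 2 stood at 4355 and the other bloom libraries at 401 to 1602. Oligodendrocyte markers, 9 of 10 found, summed to 1682 to 8018 in the non-bloom libraries, to 18080, 19137 and 14110 in bloom 5, 6 and 9, and to 4407 to 8691 in the other bloom libraries. The part of these cell types in the PSMB8, PSMB9 and PSMB10 values was not tested.

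In the 19S cap, more genes leaned lower in bloom without passing the test. Its 17 genes had a median log2 change of −0.25, with 7 of the 17 at an unadjusted p under 0.05 and lower in bloom, and none higher, where 19.1% of all genes tested were lower by that rule. The difference between cap and core was not tested. Without bloom 5, 6 and 9 the cap median was −0.16 with 15 of 17 changes below 0. Over all genes tested, 6550 changes were then below 0 and 6989 above. In that fit 6 cap genes were lower at an unadjusted p under 0.05, against 10.9% of all genes. No cap gene passed after adjustment in either fit.

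The ATPases PSMC1 to PSMC6 form the ring that unfolds substrates. PSMC2 had the smallest p of all members. Its values were 87.8 to 115 (median 99.2) in the non-bloom and 49.6 to 91.4 (median 84.3) in the bloom libraries. All 9 bloom libraries lay below the non-bloom median, as in 7.85% of all genes tested, and 7 of 9 lay below every non-bloom library, as at least 7 did in 4.21% of all genes.

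PSMC2 had a log2 change of −0.40 (SE 0.13, limma adjusted p = 0.0549), with an adjusted p of 0.0624 by edgeR and 0.0167 by DESeq2. Bloom 5 (49.6), bloom 6 (57.1) and bloom 9 (68.6) were lowest, and without them the change was −0.22 (SE 0.09, limma adjusted p = 0.162). With 1 library left out at a time, its adjusted p ran from 0.0325 to 0.103.

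PSMC6 had 73.9 to 109 (median 83.8) in the non-bloom and 42.9 to 82.7 (median 74.4) in the bloom libraries, and all 9 bloom values lay below the non-bloom median. Its log2 change was −0.35 (SE 0.14, limma adjusted p = 0.0923), and −0.16 (adjusted p = 0.367) without bloom 5, 6 and 9, which were its 3 lowest libraries. PSMC1 had 193 to 261 (median 236) and 125 to 293 (median 192), with a change of −0.29 (SE 0.15, limma adjusted p = 0.167). Bloom 9 was the highest of all 17 libraries for PSMC1, so the bloom values lay on both sides of the non-bloom range.

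PSMC3, PSMC4 and PSMC5 had changes of 0.13, 0.06 and 0.11 (limma adjusted p from 0.684 to 0.779). These positive values rested on bloom 9, which stood at 948 for PSMC3 and 936 for PSMC5 where the other bloom libraries reached 343 and 357. Without bloom 9 the 3 changes were −0.06, −0.04 and −0.07, and without bloom 5, 6 and 9 all 6 ATPase changes lay below 0.

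**Figure D3:**
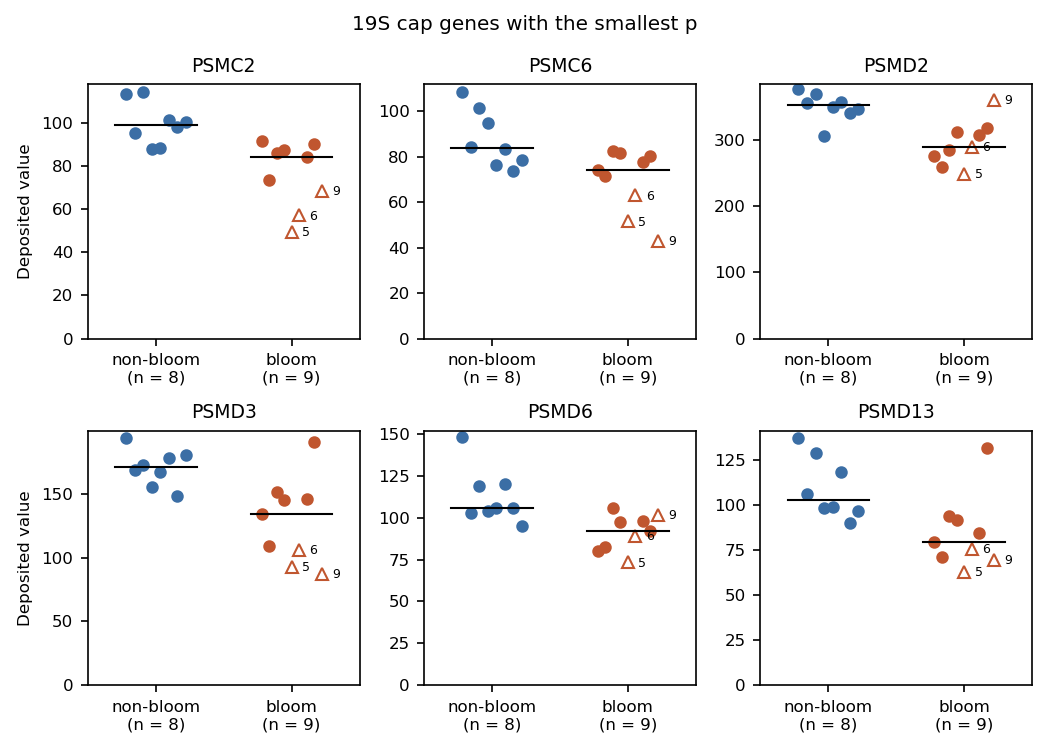
Deposited values of the 6 cap genes with the smallest p, by library, on axes from 0. Points are dolphins in order of their number, lines are medians, and open triangles mark bloom 5, 6 and 9. Of the 9 bloom libraries, 7 lie below all non-bloom libraries for PSMC2 and for PSMD3, and every panel shows overlap.

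The base of the cap also holds the scaffold subunits PSMD1 and PSMD2, which bind shuttle receptors and deubiquitinases, and the ubiquitin receptor PSMD4. PSMD2 had 305 to 377 (median 352) in the non-bloom and 249 to 359 (median 289) in the bloom libraries. Its log2 change was −0.25 (SE 0.10, limma adjusted p = 0.0907), and −0.26 (SE 0.09, adjusted p = 0.0968) without bloom 5, 6 and 9, nearly the same size. In 5 of 9 bloom libraries PSMD2 lay below all non-bloom libraries, as at least 5 did in 16.1% of all genes tested.

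PSMD1 had 244 to 342 in the non-bloom libraries, and 200 to 278 in the bloom libraries apart from bloom 9, which stood at 1335. Its log2 change was 0.04 (SE 0.28, limma adjusted p = 0.934) over all libraries and −0.24 (adjusted p = 0.110) without bloom 9. Over the same 17 libraries it was 0.34 by edgeR (adjusted p = 0.464) and −0.22 by DESeq2 (adjusted p = 0.0528). The sign for PSMD1 thus depended on the tool. PSMD4 was also highest in bloom 9, with 353 against 106 to 171 in the other bloom libraries. Its changes were 0.04 (adjusted p = 0.903) over all libraries and −0.12 (adjusted p = 0.430) without bloom 9. PSMD1 and PSMD4 were chosen for description after their values were seen.

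The lid is the part of the cap that removes ubiquitin chains, through the deubiquitinase PSMD14 held by its partner PSMD7. Its 8 genes had a median log2 change of −0.28. At an unadjusted p under 0.05, 4 of them (PSMD3, PSMD13, PSMD6 and PSMD12) were lower in bloom, against 19.1% of all genes tested. These 4 are structural subunits of the lid's horseshoe.

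PSMD3 had 149 to 194 (median 171) in the non-bloom and 87.4 to 191 (median 134) in the bloom libraries. As for PSMC2, 7 of 9 bloom libraries lay below every non-bloom library, while bloom 8, at 191, lay near the top of the non-bloom range. The log2 change was −0.44 (SE 0.14, limma adjusted p = 0.0561), and −0.24 (SE 0.11, adjusted p = 0.211) without bloom 5, 6 and 9. DESeq2 gave PSMD3 an adjusted p of 0.0244.

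PSMD13 had 90.4 to 138 (median 103) in the non-bloom and 62.9 to 132 (median 79.5) in the bloom libraries, of which 6 lay below every non-bloom library. The log2 change was −0.39 (SE 0.14, limma adjusted p = 0.0699), and −0.26 (adjusted p = 0.261) without the 3 libraries. For PSMD6 the values were 94.8 to 148 (median 106) and 73.2 to 106 (median 92.2), with 5 bloom libraries below every non-bloom library. Its change of −0.30 (SE 0.11, limma adjusted p = 0.0742) was −0.27 (adjusted p = 0.151) without bloom 5, 6 and 9, close to the value with them. At least 5 bloom libraries lay below every non-bloom library in 16.1% of all genes tested.

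PSMD12 had 77.4 to 116 (median 91.3) in the non-bloom and 46.3 to 91.5 (median 82.1) in the bloom libraries, with a log2 change of −0.33 (SE 0.14, limma adjusted p = 0.107). Without the 3 libraries this was −0.15 (adjusted p = 0.437). The 4 remaining lid genes, PSMD7, PSMD8, PSMD11 and PSMD14, had adjusted p from 0.294 to 0.693. PSMD14, the deubiquitinase, had 38.8 to 61.6 in the non-bloom and 16.6 to 49.2 in the bloom libraries, where bloom 9 was the lowest, and a change of −0.27 (SE 0.18, adjusted p = 0.294) that was 0.00 without bloom 5, 6 and 9. PSMD7 was highest in bloom 9, at 366.

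Neuronal marker levels stand beside these cap values. Bloom 5 and bloom 6, with the lowest neuronal sums (2639 and 3878), had median cap deviations from the non-bloom mean of −0.60 and −0.29. In the other bloom dolphins apart from bloom 9 the median cap deviation was −0.28 to −0.07, with neuronal sums of 5928 to 10544. Bloom 9 had a median of 0.21 and a sum of 8133. When limma was fitted with pan-neuronal level (the mean log2 value of those markers) as a covariate, no member had an unadjusted p under 0.05, against 11% of all genes tested. The cap median was then −0.03 and the median of all 37 genes was 0.02. With that covariate, PSMC2 stood at −0.18 and PSMD3 at −0.26. Over all genes, 3 passed after adjustment with the covariate, against 1241 without it. Of the 11 neuronal markers, 10 had changes below 0 themselves, so the covariate overlaps with season. The part of neuronal level in the cap values was not tested.

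The 3 assembly chaperones that carry PSMD symbols, PSMD5, PSMD9 and PSMD10, help to build the base of the cap and are not part of the finished complex. PSMD5 had 23.5 to 35.4 (median 27.0) in the non-bloom and 16.6 to 29.8 (median 23.9) in the bloom libraries, a log2 change of −0.24 (SE 0.13, limma adjusted p = 0.202). PSMD9 and PSMD10 had changes of 0.22 and −0.23 (adjusted p = 0.300 and 0.382). Without bloom 5, 6 and 9 those changes were 0.02 for both.

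**Figure D4:**
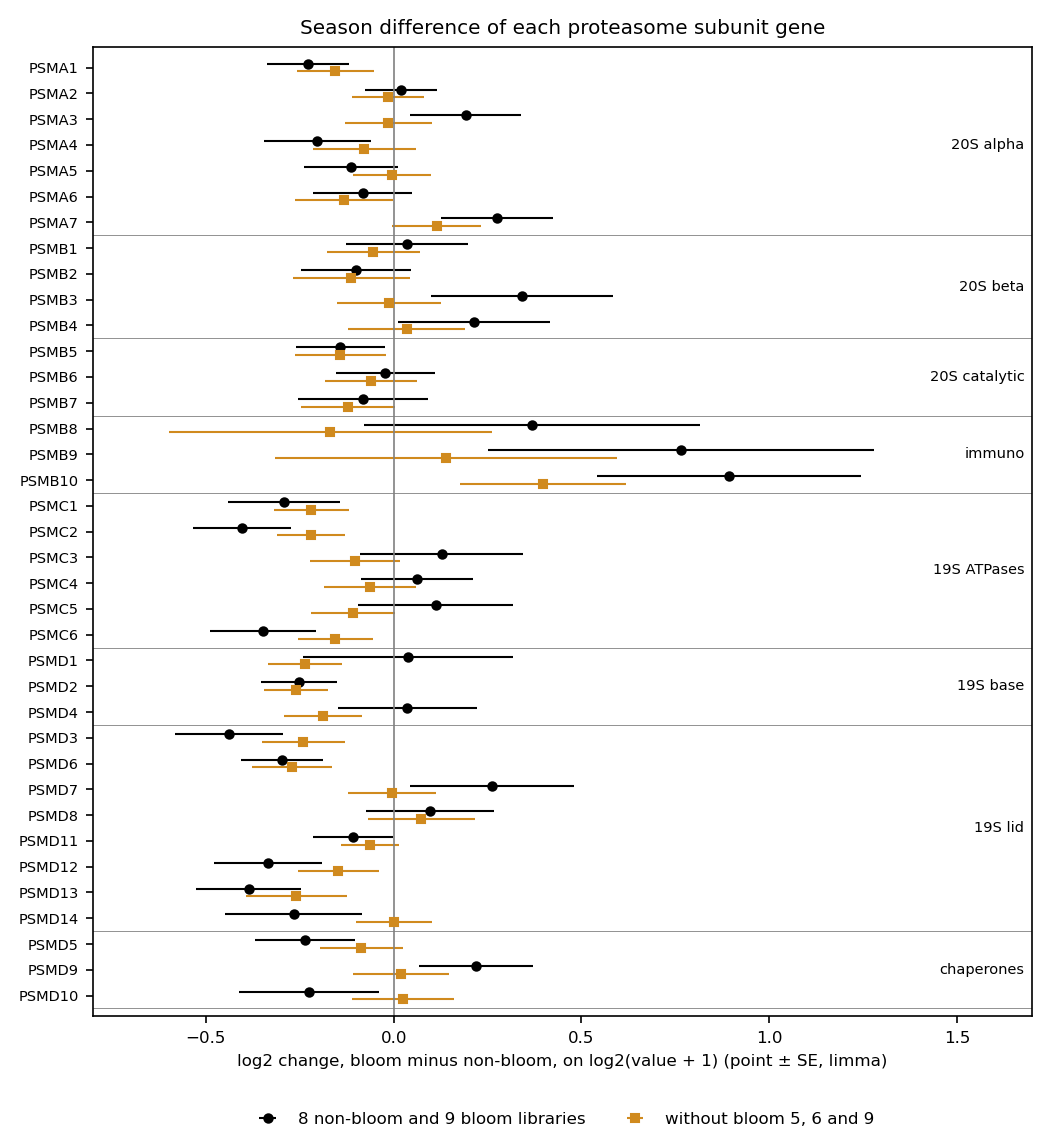
Log2 change with its SE from limma for each of the 37 tested genes, grouped by place in the complex, over all 17 libraries (black circles) and without bloom 5, 6 and 9 (orange squares). Of the 17 cap genes, 10 lie left of 0 over all libraries and 15 without the 3. Over all genes tested, 6814 changes lay below and 6734 above 0 over all libraries, and 6550 below and 6989 above without the 3. The immunoproteasome genes have the widest errors.

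Subunits of 1 complex did not move together in every dolphin. In the non-bloom libraries the 37 genes spread over 0.54 to 2.44 log2 units around their own non-bloom means, and the widest spread, in non-bloom 8, came from PSMB9. Bloom 9 spread over 4.56 log2 units, from −1.40 for PSMD14 to 3.16 for PSMB9.

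In bloom 9, 17 members lay more than 0.5 above and 9 more than 0.5 below the non-bloom mean. That dolphin held the highest value of all 17 libraries for 20 of the 37 members and the lowest for 6, against 20.5% and 24.5% of all genes tested. Core and cap genes were on both sides: PSMD1, PSMC3, PSMC5 and PSMB3 far above the other libraries, PSMD14, PSMC6 and PSMD3 below. Bloom 9 had 14782 member reads, the fewest of all, and 29 reads of PSMD14, so counting error is largest there.

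Non-bloom 1 had the highest value for 10 of the 37 members, and non-bloom 7 and bloom 5 each had the lowest for 9, against 4.70%, 11.5% and 16.9% of all genes tested. The difference between the median cap and the median core deviation was −0.11 to 0.12 in the non-bloom libraries and −0.47 to 0.02 in the bloom libraries, lowest in bloom 5.

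**Figure D5:**
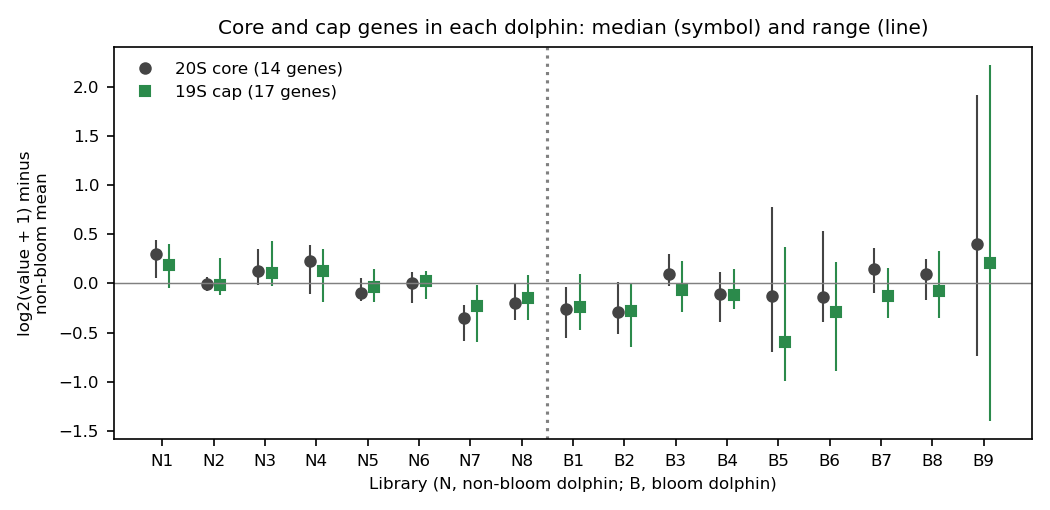
Median (symbol) and range (line) of the deviation from the non-bloom mean, on log2(value + 1), for the 14 core and 17 cap genes in each library. The cap median lies lowest in bloom 5, at −0.60, and bloom 9 has by far the longest ranges.

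The SD of the log2 level was larger in bloom than in non-bloom for 35 of the 37 members, and for 85.7% of all genes tested. Without bloom 5, 6 and 9 it was larger for 14 of the 37 members and for 52.5% of all genes. The median SD of the members was 0.22 in the non-bloom, 0.35 in the bloom and 0.19 in the bloom libraries without those 3. Over all genes tested the medians were 0.29, 0.50 and 0.29.

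Genes that act with the proteasome were read from lists chosen by function. Among its bound deubiquitinases, which trim ubiquitin chains at the cap, UCHL5 fell in bloom. Its values were 81.4 to 121 (median 112) in the non-bloom and 35.4 to 91.3 (median 80.6) in the bloom libraries, overlapping in part. The log2 change was −0.60 (SE 0.18, limma adjusted p = 0.0469), and −0.31 (adjusted p = 0.106) without bloom 5, 6 and 9. USP14 had a change of −0.51 (SE 0.23, adjusted p = 0.125).

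Of the shuttle receptors that carry ubiquitinated proteins to the cap, 5 of 6 were found and all 5 changes lay below 0, none passing. Over all genes tested, 6814 of 13548 changes lay below 0. With the pan-neuronal covariate, 2 of the 5 lay above 0. UBQLN1 had 230 ± 19.1 (n = 8) in the non-bloom and 166 ± 49.6 (n = 9) in the bloom libraries (log2 change −0.52, limma adjusted p = 0.0520). VCP, the ATPase that extracts ubiquitinated proteins ahead of the proteasome, had 343 ± 20.5 and 255 ± 63.7 (−0.48, adjusted p = 0.0642), and its 5 listed cofactors did not pass either. UBE3A, a ubiquitin ligase that binds the proteasome, had a change of −0.51 (adjusted p = 0.0509), and none of the 7 ligases and E2 enzymes found of 9 listed passed.

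Among the regulators of proteasome transcription, NGLY1, the glycanase that activates NFE2L1, fell from 42.6 ± 5.22 (n = 8) in the non-bloom to 31.8 ± 5.84 (n = 9) in the bloom libraries (log2 change −0.43, SE 0.13, limma adjusted p = 0.0485). NFE2L1, the factor that raises proteasome genes when proteasome activity is short, had a change of −0.22 (adjusted p = 0.167). NFE2L2, the oxidative stress factor, had 29.4 ± 14.0 and 59.2 ± 31.9 (0.95, SE 0.32, adjusted p = 0.0578). IRF1 and NLRC5, which mediate induction of immunoproteasome and class I genes, had changes of 0.19 and 0.44 (limma adjusted p = 0.764 and 0.362).

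In the MHC class I loading list, 5 of 7 genes were found, and TAPBP, the tapasin that holds class I molecules at the peptide transporter, fell. It had 168 to 271 (median 214) in the non-bloom and 59.4 to 188 (median 142) in the bloom libraries, with a log2 change of −0.79 (SE 0.23, limma adjusted p = 0.0429). TAP1, ERAP1, CALR and PDIA3 did not pass. UCHL5, NGLY1 and TAPBP were the only ones of the 49 genes tested in the lists outside the core and cap to pass by limma, 6.12% against 9.16% of all genes. By edgeR their adjusted p were 0.0530, 0.0508 and 0.0526, and without bloom 5, 6 and 9 none of the 3 passed.

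The assembly factors (PSMG1 to PSMG4 and POMP for the core, PAAF1 for the cap base) all had changes above 0 (median 0.15). Over all genes tested, 6734 of 13548 changes lay above 0. Without bloom 5, 6 and 9, 5 of the 6 assembly factors lay above 0, with a median of 0.05. None passed, and PSMG3 had the smallest p (log2 change 0.32, SE 0.15, limma adjusted p = 0.131). None of the 5 activators and inhibitors passed: PSME1 and PSME2, which form the interferon-inducible activator, had changes of −0.01 and 0.38 (adjusted p = 0.984 and 0.414). ADRM1 had 109 to 168 in the non-bloom and 98.6 to 501 in the bloom libraries, highest in bloom 9 (log2 change 0.29, SE 0.24, adjusted p = 0.374).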

How the data were processed

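RNA from about 100 mg of frozen cortex per dolphin was made into messenger RNA libraries, per the labels' protocols. Trim Galore 0.6.1 and STAR 2.5.2a are named in the submitters' processing notes. The counting tool, strand setting, build and annotation are named in none of the sources used. The deposited files hold 1 normalised signal value per gene and library. All nonzero values were whole multiples of the value of 1 read (100% whole within 0.01), and the deposited signal equalled CPM scaled by TMM factors recomputed here, so reads and depth were recovered.

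Genes were kept by edgeR's filterByExpr (minimum count 10, minimum total 15), which left 13548 of 21265. The main test was limma-trend 3.58.1 (R 4.3.3) on log2(value + 1), season only, over 8 non-bloom and 9 bloom libraries, with a threshold of 0.05 after Benjamini-Hochberg adjustment over all genes tested. A log2 fold on this scale understates the change of low genes. Alternatives were edgeR 4.0.16 (quasi-likelihood) and DESeq2 1.42.0 on the recovered counts, other scalings, filters and a pseudocount of 0.1, covariates for pan-neuronal or mitochondrial level, each library left out in turn, and leaving out bloom 5, 6 and 9. The edgeR and pan-neuronal fits without bloom 5, 6 and 9 were chosen after seeing the data. On counts simulated from these libraries for bloom minus non-bloom (13274 genes), limma recovered 59.2% of 98 genes changed by 1 log2 unit. It recovered 95.8% of 96 changed by 2, with 5 false calls among 155, and made 0 calls where nothing was changed. Each gene was drawn independently around 1 mean profile, without library-wide differences such as those of bloom 5, 6 and 9. The simulation therefore does not measure false calls in these data. Its changes were also larger than that of any member by limma (at most 0.89).

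The proteasome genes and the other lists were chosen with earlier results of these data known. Values were given in full for the 12 members with the smallest p and the 6 catalytic subunits PSMB5 to PSMB10, and up to 3 genes with the smallest p were named from each other list. Further genes named, such as PSMA2, PSMB3, PSMD1, PSMD4, PSMD7 and PSMD14 or low-ranking list genes, were chosen after their values were seen. Some genes of the other lists are not reported here. All 39 symbols matched RefSeq's table for mTurTru1.mat.Y, used for names only. The labels do not say whether animals were related, and p-values measure the spread between these dolphins.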

Additional observations from a re-analysis of the deposited data

Results flagged for a closer look

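Within each season, the highest and lowest dolphin of each tested member, of the member share of reads and of the 3 catalytic ratios were compared with the rest of their group by Dixon's gap, over 82 groups. Gaps were taken on log2(value + 1) for genes, on the log2 ratio for ratios and in percent for the share. Chance flags about 1 in 20 such groups. The groups rest on the same 17 libraries and are not independent, so 1 odd library can raise many flags. The number of flags was not tested against that rate. There were 14 flags, and 11 of them were high values of bloom 9, the library with 77.2% mitochondrial reads.

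In bloom 9 the core genes PSMB1 (299, other bloom libraries 123 to 166), PSMB3 (307, others 62.8 to 140), PSMB4 (289, others 92.1 to 138) and PSMB7 (338, others 122 to 187) stood apart. The same dolphin stood apart for the ATPases PSMC3 (948, others 224 to 343), PSMC4 (239, others 113 to 148) and PSMC5 (936, others 265 to 357). Among the other cap genes it did so for PSMD1 (1335, others 200 to 278), PSMD4 (353, others 106 to 171) and PSMD7 (366, others 89.4 to 134). The share of non-mitochondrial reads taken by proteasome genes was 0.843% in bloom 9 and 0.478% to 0.602% in the other bloom libraries.

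Of the 3 remaining flags, 2 belonged to non-bloom 8. Its PSMB9 value was 12.1 where the other non-bloom dolphins had 1.03 to 2.46, and its PSMB9 to PSMB6 ratio was 10.3% where they had 0.636% to 1.74%. The last was PSMD14 in non-bloom 3, at 61.6 against 38.8 to 46.5.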

How the results depend on the processing

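The settings compared are 29 alternatives to the limma fit over 17 libraries. Over all genes, 1241 passed by limma. The count was 3170 by DESeq2, 560 with no filter, 3 with the pan-neuronal covariate, 2518 with the mitochondrial covariate, 320 without bloom 5, 6 and 9, 228 by edgeR without them, 55 with the pan-neuronal covariate without them, and 61 to 2895 with 1 library left out at a time. Higher calls were 606 of 1241 by limma and 826 of 1123 by edgeR. Of the proteasome genes, 0 passed by limma and 2 with RLE scaling (PSMC2 and PSMD3), where 9.86% of all genes passed. By DESeq2 7 passed, against 23.4% of all genes. With the mitochondrial covariate 2 passed (again PSMC2 and PSMD3), against 18.6%, and 0 to 3 did with 1 library left out. The last were PSMB10, PSMC2 and PSMD3 without bloom 1 (21.5% of all genes passed), PSMC2 and PSMD3 without bloom 4 (17.1%), and PSMC2, PSMD3 and PSMD13 without bloom 8 (19.9%). Of the genes in the other lists, 3 passed by limma, 5 with RLE scaling, 0 by edgeR, 8 by DESeq2, 0 with no filter, 1 with a pseudocount of 0.1, 0 with the pan-neuronal covariate, 7 with the mitochondrial covariate, 0 without bloom 5, 6 and 9 (by limma, by edgeR and with the pan-neuronal covariate), and 0 to 8 with 1 library left out. The cause was not tested. With 1 library left out, the median log2 change of the proteasome genes ran from −0.125 to −0.0206, and the mean log2 ratio difference from 0.830 to 1.13 for PSMB10 to PSMB7, 0.297 to 0.842 for PSMB8 to PSMB5 and 0.646 to 1.35 for PSMB9 to PSMB6. Of the 37 genes, 16 kept the sign of their change in all 29 settings. No paired analysis was possible because each library is another dolphin and the replicate numbers only follow the order of accession. Depth kept PSMA8 and PSMB11 from being tested.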
